A study of Mus musculus with 12 samples.

Results

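The 44 genes described here encode the chains of the collagens. They are the rows, out of 55416 genes in each table, whose gene name is Col followed by a number, the letter a and a number, and the same 44 names were found in the intestine table and in the liver table. RNA was sequenced from the duodenum (called intestine here) and the liver of male C57BL6/J mice, aged 8 weeks when dosing began, that were given corticosterone (CORT), the main glucocorticoid of rodents, at 40 mg/kg, or its vehicle (Veh) of DMSO, Tween-80 and water, by subcutaneous injection every day for 8 weeks. Each tissue had 3 CORT and 3 Veh libraries, 12 libraries in all, made from bulk tissue of 50 mg per sample. Values are TPM, relative abundances scaled for transcript length and to a near-common library total, so sequencing depth is unknown and counting intervals are not given.

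Collagens are triple helices of alpha chains that are secreted and assembled outside the cell. Fibrillar collagens (types I, II, III, V, XI, XXIV and XXVII here) form the cross-striated fibres of connective tissue, and type I is normally built from alpha 1 and alpha 2 chains encoded by Col1a1 and Col1a2, whereas type III is a homotrimer of the Col3a1 product. Type IV collagen forms the sheet-like network of basement membranes and is grouped here with types VII, XV and XVIII, which lie in or beside that layer. The other members form beaded filaments (type VI), short-chain networks (VIII and X), fibril-associated molecules (IX, XII, XIV, XVI, XIX, XX and XXII) or span the cell membrane (XIII, XVII, XXIII and XXV), with XXVI and XXVIII left unclassed. In the gut wall and the liver, fibroblasts, smooth muscle cells, hepatic stellate cells and endothelial cells are known sources of these chains, and glucocorticoids are known to lower type I collagen synthesis in skin.

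The neighbourhood of the genes matters for reading them together. In the RefSeq annotation of GRCm38.p6 all 44 names were matched, and 8 pairs of members were direct neighbours among protein-coding genes, among them Col4a1 with Col4a2, Col3a1 with Col5a2 and Col6a1 with Col6a2. RefSeq promoter windows, running from 250 bases before to 50 bases after the gene start, were matched for 35 of the 44 genes (38 windows). The windows of 5 genes are printed because the values of Col13a1 and the ratios of Col3a1 to Col1a2 and of Col4a1 to Col4a2 are described below. Capitals mark 3 common promoter motifs on either strand: the letters CCAAT, the GC box motif GGGCGG, and the letters TATAAA.
Col13a1 (chr10:61979059-61979358, minus strand, GRCm38.p6): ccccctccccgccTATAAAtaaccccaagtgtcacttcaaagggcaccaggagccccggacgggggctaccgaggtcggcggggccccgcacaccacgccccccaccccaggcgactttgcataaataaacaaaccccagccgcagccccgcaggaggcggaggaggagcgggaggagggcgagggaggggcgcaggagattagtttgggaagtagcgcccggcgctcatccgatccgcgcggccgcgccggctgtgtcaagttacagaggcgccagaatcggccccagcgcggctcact
Col3a1 (chr1:45311288-45311587, plus strand, GRCm38.p6): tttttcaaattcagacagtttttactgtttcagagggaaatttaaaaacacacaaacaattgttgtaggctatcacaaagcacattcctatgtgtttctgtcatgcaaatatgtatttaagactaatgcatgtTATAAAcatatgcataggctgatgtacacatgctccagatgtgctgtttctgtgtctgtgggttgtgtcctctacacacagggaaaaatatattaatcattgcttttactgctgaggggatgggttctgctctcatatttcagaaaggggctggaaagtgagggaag
Col1a2 (chr6:4505368-4505667, plus strand, GRCm38.p6): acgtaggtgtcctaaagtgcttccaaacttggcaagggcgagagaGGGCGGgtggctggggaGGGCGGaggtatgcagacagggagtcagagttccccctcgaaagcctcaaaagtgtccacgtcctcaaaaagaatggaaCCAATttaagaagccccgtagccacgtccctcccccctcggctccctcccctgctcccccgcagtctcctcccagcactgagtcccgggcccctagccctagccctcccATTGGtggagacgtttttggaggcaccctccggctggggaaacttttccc
Col4a1 (chr8:11312777-11313076, minus strand, GRCm38.p6): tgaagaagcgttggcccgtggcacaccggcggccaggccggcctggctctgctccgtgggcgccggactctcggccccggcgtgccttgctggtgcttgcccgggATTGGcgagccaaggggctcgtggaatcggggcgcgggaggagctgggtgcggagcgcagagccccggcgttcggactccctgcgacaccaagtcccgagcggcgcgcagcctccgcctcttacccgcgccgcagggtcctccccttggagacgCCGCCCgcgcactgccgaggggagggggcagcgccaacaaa
Col4a2 (chr8:11312555-11312854, plus strand, GRCm38.p6): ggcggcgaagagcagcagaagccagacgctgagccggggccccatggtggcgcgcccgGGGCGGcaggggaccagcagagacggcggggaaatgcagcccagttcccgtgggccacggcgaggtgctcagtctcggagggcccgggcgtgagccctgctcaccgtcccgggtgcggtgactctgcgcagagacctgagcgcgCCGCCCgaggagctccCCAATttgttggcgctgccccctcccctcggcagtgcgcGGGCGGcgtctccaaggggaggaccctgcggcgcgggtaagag
Col4a1 and Col4a2 are read in opposite directions from starts that lie 21 bases apart, and their windows share 78 bases. The Col3a1 window is AT-rich, with 37.7% G and C, against 61% for Col1a2, 68% for Col13a1, 74% for Col4a1 and 73.7% for Col4a2. The Col1a2 window holds 2 CCAAT boxes and 2 GC boxes, the Col4a2 window 1 and 3, and the Col4a1 window 1 and 1, whereas Col13a1 and Col3a1 hold neither and have 1 TATAAA each. Of all 32851 windows, 37.4% hold CCAAT, 35.7% GGGCGG and 13.6% TATAAA. The half-site bound by the glucocorticoid receptor, with the letters AGAACA, was in none of the 5 printed windows and in the windows of Col9a1 and Col20a1 among the members, against 6233 of the 32851 windows. The full palindromic glucocorticoid response element was in 0 of the 38 member windows and in 0.475% of all windows. All motifs were searched on both strands and at any distance from the gene start within the window. The half-site can overlap the palindrome, and a match is a string of letters, not a measured binding site.

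In both tissues Fkbp5, a chaperone gene known to be induced by glucocorticoids, separated the groups in the direction of the treatment. Its TPM was 15.3 ± 7.41 (SD, n = 3) in Veh and 304 ± 66.7 in CORT intestine, and 13.1 ± 6.19 in Veh and 248 ± 26.1 in CORT liver. The 4 hepatocyte markers summed to between 51109 and 85320 TPM in the liver libraries, and the 5 enterocyte markers to between 12348 and 28208 TPM in the intestine libraries. Some libraries stood apart in genes of other cells. In the intestine, 14 pancreatic acinar genes summed to 29707 TPM in Veh2 and 25761 in Veh3 but to between 155 and 358 in the other 4 libraries. In the liver, Veh2 was high in stromal genes, with a smooth muscle marker sum of 25.5 TPM against 4.75 and 8.71 in the other Veh libraries and 6.07 to 17.4 in CORT. Estimates without these libraries are given beside the members concerned. Genes were tested with limma on log2(TPM + 1) where their mean reached 1 TPM in either group, and a gene was called with an adjusted p of at most 0.05 and a fold change over 1.5. For genes with few TPM this log scale makes a change look smaller than it is.

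Type VI and type III genes had the highest collagen levels in the intestine, in an order that differed between the groups: Col3a1 (42.8 TPM) was above Col6a1 (35.5) in Veh, and below Col6a1 (27.3), Col6a2 (24.4) and Col6a4 (20.7) in CORT, at 18.7. Over the 6 libraries together, the mean was 31.4 TPM for Col6a1, 30.7 for Col3a1 and 27.6 for Col6a2, followed by Col6a4 (18.3), Col4a1 (17.6), Col1a2 (16.7), Col18a1 (14.3) and Col1a1 (11.7), and neighbours in this order lay within each other's spread. The 44 genes summed to 265 ± 66.1 TPM in Veh and 191 ± 25.6 in CORT, and these sums overlapped. The 11 fibrillar genes summed to 63.4, 120 and 75.7 TPM in Veh1 to Veh3 and to 41.5, 53.4 and 49 in CORT1 to CORT3, so every CORT library was below every Veh library. In bulk tissue, fewer collagen-producing cells and less RNA per cell cannot be told apart.

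Of the 44 genes, 20 passed the filter on low values in the intestine, 19 of them in both groups and Col4a5 through CORT alone. The other 24 did not exceed 0.99 TPM in any library. No collagen gene was called in the intestine (0 of 20, limma), where 2.15% of all genes tested were called. Unadjusted p was under 0.05 for 8 of the 20, against 2618 of the 13607 genes tested. The estimate was below 0 for 17 of the 20 genes, with a median log2 fold change of -0.32, while 51.5% of all genes tested were below 0 and their median was -0.012. For 8 of the 20, CORT and Veh values were fully separate, against 26.4% of all genes tested. Full separation with CORT as the lower group was seen for 7 of the 20, against 14.3% of all genes tested. With 1 library left out at a time, 13 to 18 estimates were below 0. With both acinar-rich libraries, Veh2 and Veh3, left out, 11 of the 20 estimates were below 0 against the lone Veh1. Over all genes tested in that setting 7628 of 13576 were below 0, a similar share.

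**Figure D1:**
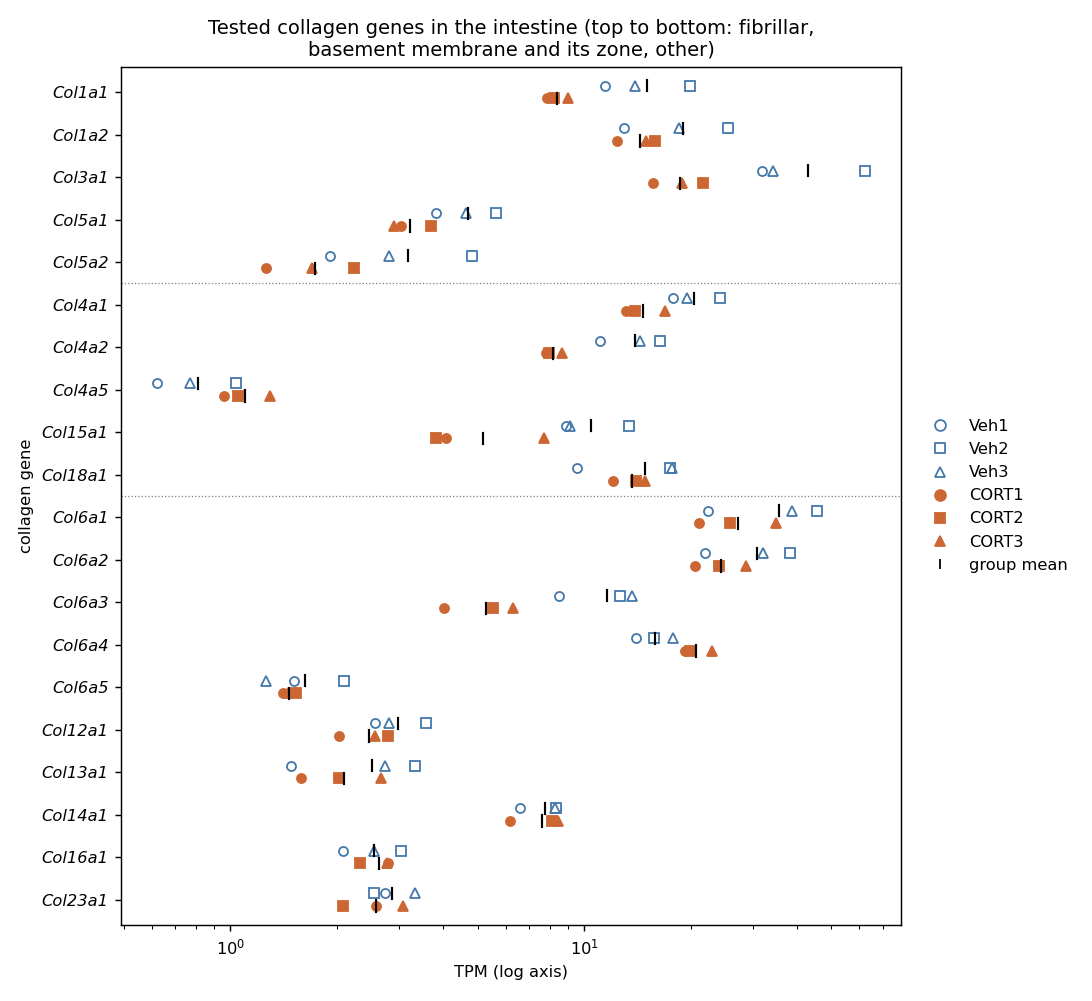
TPM (log axis) of the 20 collagen genes tested in the intestine, 1 symbol per library, Veh open and CORT filled, with group means as black bars. Col1a1, Col3a1, Col5a1, Col4a1, Col4a2, Col15a1 and Col6a3 have all CORT libraries below all Veh libraries, and Col6a4 has all CORT libraries above.

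Among the fibrillar genes, all 5 tested had lower means in CORT intestine, with fully separate groups for Col3a1, Col1a1 and Col5a1. Col3a1 was 31.72, 62.38 and 34.26 TPM in Veh1 to Veh3 and 15.61, 21.66 and 18.86 in CORT1 to CORT3. Every CORT library was thus below the lowest Veh library, and Veh2 was the highest. The log2 fold change of Col3a1 was -1.10 (SE 0.27, limma adjusted p = 0.0923), a mean of 18.7 ± 3.03 against 42.8 ± 17 TPM (SD, n = 3). Across the alternatives its adjusted p ran from 0.0434, with both tissues in 1 fit, to 0.45, the value without Veh2 and Veh3, where the estimate was -0.74.

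Col1a1 was 11.49, 19.87 and 13.91 TPM in Veh and 7.87, 8.2 and 9.03 in CORT, again without overlap (log2 fold change -0.75, SE 0.20, limma adjusted p = 0.111), and its estimate was -0.42 without Veh2 and Veh3. Its partner Col1a2 was 12.99, 25.46 and 18.57 TPM in Veh and 12.39, 15.82 and 14.93 in CORT. The Col1a2 groups overlapped, with Veh1 inside the CORT range (-0.34, SE 0.24, limma adjusted p = 0.478), and without Veh2 and Veh3 its estimate was 0.13. Of the type V genes, whose product nucleates type I fibrils, Col5a1 averaged 4.7 ± 0.916 TPM in Veh and 3.21 ± 0.426 in CORT, and Col5a2 3.18 ± 1.48 and 1.73 ± 0.491. The Col5a1 estimate moved from -0.43 to -0.20 without Veh2 and Veh3. The 6 fibrillar genes under the filter, among them the cartilage genes Col2a1 and Col11a1, reached at most 0.88 TPM, with Col5a3 and Col27a1 lower in every CORT library than in any Veh library.

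Of the basement membrane genes tested, 4 of 5 had lower estimates. Col4a1 was 17.86, 24.17 and 19.49 TPM in Veh and 13.12, 13.96 and 16.93 in CORT (-0.45, SE 0.16, limma adjusted p = 0.191). Col4a2 was 11.11, 16.37 and 14.39 TPM in Veh and 7.81, 7.96 and 8.69 in CORT (-0.69, SE 0.16, limma adjusted p = 0.0823). Both chains of the common type IV network thus had separate groups, with neither called, and without Veh2 and Veh3 their estimates were -0.27 and -0.41. Col15a1, whose product bridges the basement membrane and the fibrils beneath it, averaged 10.5 ± 2.55 TPM in Veh and 5.19 ± 2.17 in CORT without overlap (-0.92, or -0.73 without Veh2 and Veh3). Col18a1, the precursor of endostatin, did not follow: it was 9.54, 17.48 and 17.71 TPM in Veh and 12.04, 14.02 and 14.84 in CORT, with Veh1 the lowest library. As a share of all collagen TPM, Col18a1 was 5.59 ± 1% in Veh and 7.17 ± 0.246% in CORT.

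No type VI gene was called. Col6a3 was 8.52, 12.67 and 13.69 TPM in Veh and 4.01, 5.54 and 6.29 in CORT, with no overlap (mean 11.6 ± 2.74 against 5.28 ± 1.16, SD, n = 3), and had the lowest adjusted p of the 20 genes (limma adjusted p = 0.0737). Without Veh2 and Veh3 its estimate was -0.62. Col6a1 was 22.43, 45.41 and 38.58 TPM in Veh and 21.18, 25.88 and 34.77 in CORT, and Col6a2 was 22.03, 38.29 and 31.99 in Veh and 20.54, 23.98 and 28.73 in CORT. Both overlapped because Veh1 was as low as the CORT libraries. For Col6a4 the estimate was above 0, with 14.05, 15.75 and 17.79 TPM in Veh and 19.24, 19.92 and 23.02 in CORT (0.37, SE 0.14, limma adjusted p = 0.212, and 0.53 without Veh2 and Veh3). The remaining 6 tested genes of the third class, Col6a5, Col12a1, Col13a1, Col14a1, Col16a1 and Col23a1, had estimates nearer 0 and overlapping groups. Below the filter, Col4a6 and Col9a3 were higher in every CORT library and Col6a6, Col8a2 and Col26a1 lower, all under 1 TPM. Col6a6 (at most 0.05 TPM) and Col26a1 (at most 0.1 TPM) were near 0 in every library, too low to be judged. Col9a1 and Col10a1 were listed at 0 in all 6.

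Marker sums of collagen-producing cells overlapped between the groups, and 0 of the markers were called. The sum of 7 smooth muscle genes was 614, 903 and 452 TPM in Veh and 378, 299 and 486 in CORT, with 6 of the 7 estimates below 0 and a median log2 fold change of -0.65. Acta2 averaged 167 ± 36.3 TPM in Veh and 106 ± 25.3 in CORT, with overlap. Actg2 was 131.5, 302.67 and 113.21 TPM in Veh and 76.69, 53.32 and 96.4 in CORT. Des was 68.87, 109.39 and 56.69 TPM in Veh and 49.1, 40.5 and 53.88 in CORT. Actg2 and Des thus had separate groups, and the other smooth muscle genes overlapped. The sum of 6 fibroblast genes ranged from 67.7 to 89.5 TPM in Veh and from 58.1 to 99.7 in CORT, and that of 5 endothelial genes from 27.7 to 38.1 and from 27.5 to 37.6, so these overlapped. Of the 5 enterocyte genes 0 were called and 2 estimates were below 0. Vil1 averaged 1153 ± 250 TPM in Veh and 1029 ± 165 in CORT and Sis 732 ± 73.7 and 729 ± 133. Apoa4 averaged 9591 ± 2587 and 19837 ± 2570, Fabp2 2757 ± 580 and 5064 ± 1149, and Lct 336 ± 182 and 480 ± 120. The sum of the 5 ran from 12348 to 18727 TPM in Veh and from 25303 to 28208 in CORT, without overlap. Apoa4 was its largest part. The part of these cells in the collagen values was not tested.

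**Figure D2:**
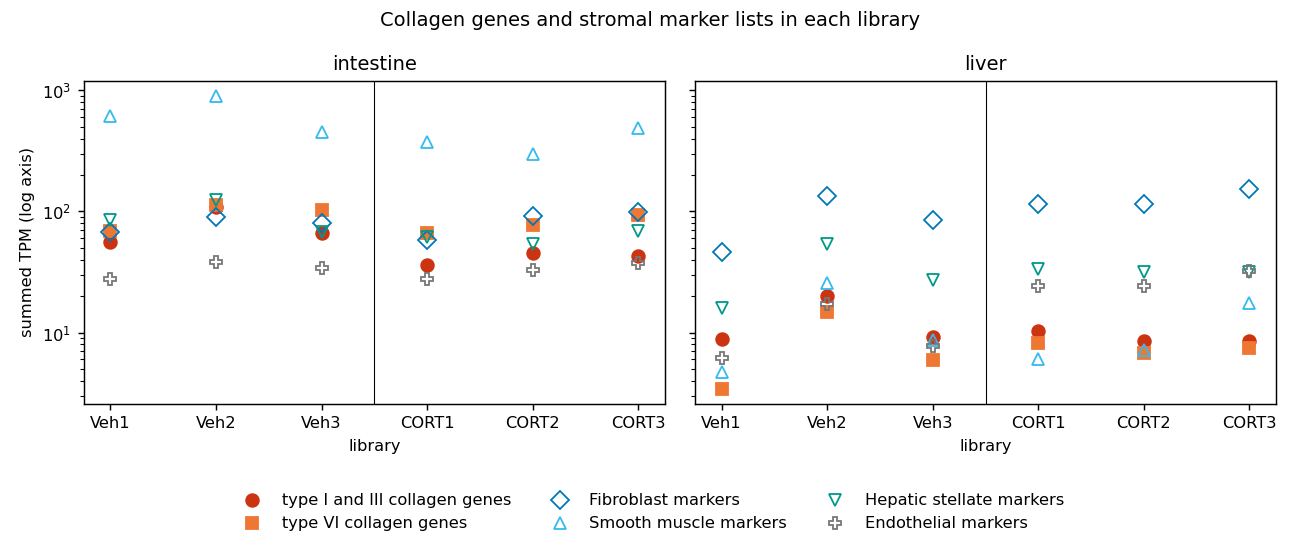
Summed TPM (log axis) in each library for type I and III collagen genes, type VI collagen genes (filled symbols) and marker lists of stromal cells (open symbols). In the intestine, types I and III sum to 35.9 to 45.7 TPM in CORT and 56.2 to 108 in Veh, while in the liver Veh2 is the highest Veh library in every series shown.

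In the liver, Col18a1 was by far the leading collagen gene, and hepatocytes are known to make its product. It was 206.33, 228.32 and 240.6 TPM in Veh and 192.55, 199.76 and 182.42 in CORT, and it made up between 72% and 85.2% of all collagen TPM. The CORT libraries were all below the Veh libraries, by a small margin (-0.23, SE 0.12, limma adjusted p = 0.276). The next genes over the 6 libraries were Col14a1 with 13.3 TPM, Col4a1 (7.38), Col3a1 (5.93), Col4a2 (3.33), Col6a1 (3.21), Col1a2 (2.98) and Col6a3 (2.45), and neighbours in the order after Col18a1 lay within each other's spread. Col1a1 averaged 2.01 TPM, against 11.7 in the intestine, although levels in the 2 tissues come from tables normalised separately and were not tested.

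Of the 44 genes, 16 passed the filter in the liver, 15 in both groups and Col13a1 through CORT alone, and none of the other 28 exceeded 1.08 TPM in any library. Col13a1 rose and was called (1 of 16, limma), where 6.92% of all genes tested were called. Of all 810 called liver genes 71% were higher in CORT, and with median-ratio scaling 53.7% of 1015 were, under which Col13a1 and Col3a1 were the members called. The estimate was below 0 for 9 of the 16, with a median of -0.11, against 41.6% and 0.078 over all genes tested. Separate groups were seen for 4 of the 16, against 32.2% of all genes tested. Separate groups with CORT lower were seen for 3 of the 16, against 11.6% of all genes tested. The numbers of members called and of members with separate groups were therefore close to what these libraries gave for genes at large.

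**Figure D3:**
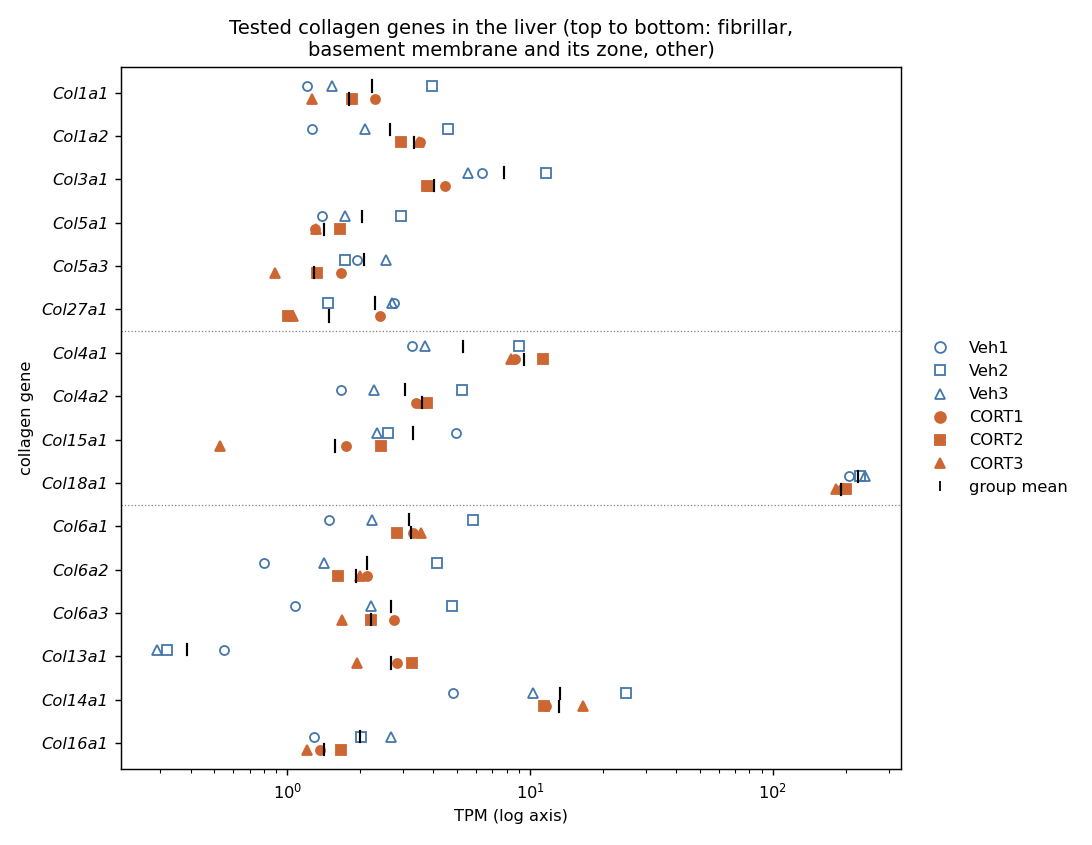
TPM (log axis) of the 16 collagen genes tested in the liver, drawn as in the plot of intestine members. Col13a1 has all CORT libraries above all Veh libraries, Col3a1, Col5a3 and Col18a1 have all CORT libraries below, and Veh2 is the highest library for Col1a1, Col1a2, Col3a1, Col6a1, Col6a2 and Col6a3.

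Col13a1, which encodes a transmembrane collagen of cell adhesion sites, was 0.55, 0.32 and 0.29 TPM in Veh liver and 2.83, 3.26 and 1.94 in CORT liver. The lowest CORT library was thus more than 1 TPM above the highest Veh library. The mean rose 6.92-fold in TPM, from 0.387 ± 0.142 to 2.68 ± 0.673 (SD, n = 3), and by 1.39 on the log2(TPM + 1) scale (SE 0.21, limma adjusted p = 0.0152). Because it passed the filter through the CORT group, the filter itself favoured a difference, but the gene was also called with no filter on low values. Without Veh3, CORT1 or CORT2 its adjusted p was 0.0583, 0.0743 and 0.0523 (limma), and over all alternatives it ran from 0.00284 to 0.0743. The sum of 5 endothelial genes was also higher in CORT, at 6.14, 17.2 and 7.71 TPM in Veh and 24.2, 24.3 and 32.3 in CORT. Within each group, Col13a1 and this sum did not order the libraries alike. With 3 libraries a group, and Col13a1 at 0.29 to 0.55 TPM in Veh, no conclusion can be drawn from these orders. Pecam1, the endothelial adhesion gene, rose by 1.52 (SE 0.32, limma adjusted p = 0.037). The part of endothelial RNA in the Col13a1 value was not tested.

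In the intestine Col13a1 was 1.49, 3.32 and 2.74 TPM in Veh and 1.59, 2.03 and 2.67 in CORT, with overlapping groups (-0.16, SE 0.25, limma adjusted p = 0.758). The difference between the 2 tissues' log2 fold changes, intestine minus liver, was -1.56 (SE 0.33, limma adjusted p = 0.0277), and Col13a1 was the 1 collagen gene of 14 tested in both tissues to pass, where 3.00% of all 10500 genes passed. When libraries were left out singly, it missed the threshold in 7 of 12 fits, without intestine Veh2, Veh3, CORT1 or CORT2 or liver Veh3, CORT1 or CORT2 (limma adjusted p of 0.0547 to 0.0751), and without liver Veh2 the genes that passed were Col13a1, Col4a1 and Col4a2.

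**Figure D4:**
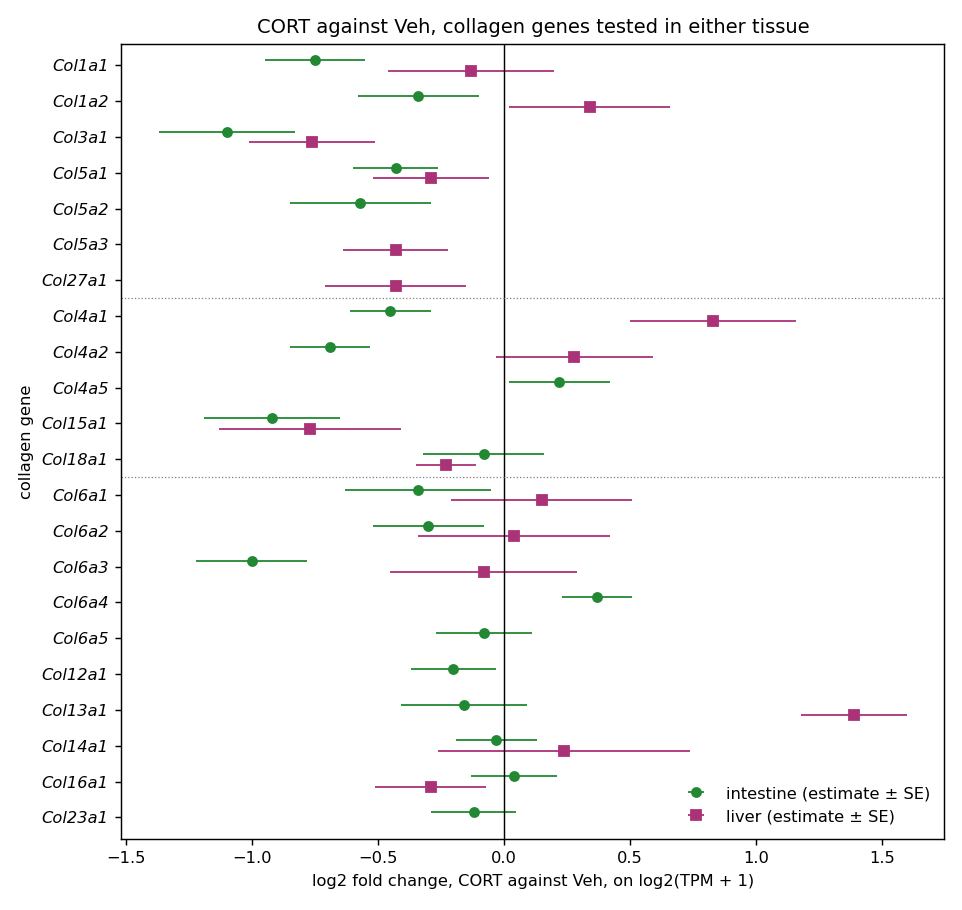
Log2 fold changes, CORT against Veh, with their SE from limma, for the 22 collagen genes tested in the intestine (circles) or the liver (squares). Col3a1 is at -1.10 and -0.76 in the 2 tissues, Col4a1 at -0.45 and 0.83, and Col13a1 at -0.16 and 1.39.

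Of the fibrillar genes in the liver, Col3a1 was 6.37, 11.62 and 5.53 TPM in Veh and 4.45, 3.77 and 3.85 in CORT. All CORT libraries were below all Veh libraries (-0.76, SE 0.25, limma adjusted p = 0.118), and with each library rescaled by its median ratio the estimate was -0.83 and passed (limma adjusted p = 0.0442). Without Veh2, its highest library, the Col3a1 estimate was -0.47 (limma adjusted p = 0.0914). Col1a1 was 1.21, 3.94 and 1.53 TPM in Veh and 2.29, 1.84 and 1.26 in CORT. Col1a2 was 1.27, 4.58 and 2.1 in Veh and 3.53, 2.94 and 3.48 in CORT. For both chains of type I, the Veh libraries spanned the CORT libraries, with Veh2 the highest and Veh1 the lowest. Without Veh2, the Col1a1 estimate turned from -0.13 to 0.23 and that of Col1a2 moved from 0.34 to 0.70. Col5a3 averaged 2.08 ± 0.432 TPM in Veh and 1.29 ± 0.386 in CORT without overlap (-0.43, SE 0.21), and Col27a1 2.3 ± 0.722 and 1.49 ± 0.788 with overlap.

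The type IV pair in the liver had estimates of the opposite sign to the intestine. Col4a1 was 3.27, 8.98 and 3.69 TPM in Veh and 8.65, 11.33 and 8.36 in CORT, so that only Veh2 lay among the CORT libraries (0.83, SE 0.33, limma adjusted p = 0.169). Without Veh2 the estimate was 1.21 and Col4a1 was called (limma adjusted p = 0.0235). Col4a2 was 1.66, 5.23 and 2.28 TPM in Veh and 3.4, 3.78 and 3.63 in CORT, with overlap (0.28, SE 0.31, limma adjusted p = 0.601), and its estimate was 0.64 without Veh2 (limma adjusted p = 0.0668) and 0.03 without Veh1. The difference between tissues was -1.28 (SE 0.38, limma adjusted p = 0.104) for Col4a1 and -0.97 (SE 0.36, adjusted p = 0.182) for Col4a2, and neither passed. Col15a1 averaged 3.3 ± 1.44 TPM in Veh and 1.57 ± 0.966 in CORT liver, with overlap.

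Among the other liver members, Col14a1, a fibril-associated collagen, was 4.8, 24.82 and 10.29 TPM in Veh and 11.66, 11.4 and 16.59 in CORT, with the CORT values inside the Veh range (0.24, or 0.79 without Veh2). Col6a1 was 1.48, 5.83 and 2.24 TPM in Veh and 3.31, 2.83 and 3.57 in CORT, and Col6a3 was 1.08, 4.76 and 2.22 in Veh and 2.75, 2.22 and 1.68 in CORT. Both had Veh2 as the highest library and no separation, and without Veh2 their estimates moved from 0.15 to 0.58 and from -0.08 to 0.30. Below the filter, Col9a2 was higher in every CORT library (0.09 to 0.52 TPM, against at most 0.01 in Veh) and Col25a1 lower (at most 0.01 TPM, against 0.05 to 0.36), and 6 genes were listed at 0 in all libraries. Veh2 was also the highest Veh library in the fibroblast (135 TPM) and stellate (54 TPM) marker sums, and of the 5 adipocyte genes Adipoq and Lep were listed at 0 in all 6 livers, while Cidec, which fatty hepatocytes are also known to express, was 3.69 ± 0.118 TPM in Veh and 72.5 ± 55.3 in CORT. The part of stromal cells in the liver values was not tested.

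The ratio of collagen chains within a library does not depend on how the library was scaled. Ratios were taken for 8 pairs of fibrillar and type IV, V and VI genes, 16 comparisons over both tissues, and these pairs were chosen after the values had been seen. An exact permutation test of 3 against 3 libraries cannot give a two-sided p below 0.1, so none could pass. The 8 comparisons without overlap all had p = 0.1 (exact permutation test, adjusted over 16 comparisons 0.2). How often ratios of other gene pairs separate was not computed, so the count of 8 has no background to be read against.

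Col3a1 stood lower relative to Col1a2 in CORT libraries of both tissues. In the intestine the ratio of Col3a1 to Col1a2 was 2.44, 2.45 and 1.84 in Veh and 1.26, 1.37 and 1.26 in CORT, a difference in mean log2 ratio of -0.78. In the liver it was 5.02, 2.54 and 2.63 in Veh and 1.26, 1.28 and 1.11 in CORT, a difference of -1.41. The 6 CORT values thus lay between 1.11 and 1.37, below all 6 Veh values, and the acinar-poor intestine Veh1 and the stroma-rich liver Veh2 lay with the other Veh libraries. Leaving out each library in turn gave differences of -0.92 to -0.71 in the intestine and -1.58 to -1.09 in the liver.

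Within type I the ratio of Col1a1 to Col1a2 was also lower, at 0.885, 0.78 and 0.749 in Veh and 0.635, 0.518 and 0.605 in CORT intestine (-0.46), and at 0.953, 0.86 and 0.729 in Veh and 0.649, 0.626 and 0.362 in CORT liver (-0.67). Col3a1 to Col1a1, by contrast, overlapped in both tissues (-0.32 and -0.74). The ratio of Col4a1 to Col4a2, the neighbours with adjoining starts, was higher in CORT. It was 1.61, 1.48 and 1.35 in Veh and 1.68, 1.75 and 1.95 in CORT intestine (0.28), and 1.97, 1.72 and 1.62 in Veh and 2.54, 3 and 2.3 in CORT liver (0.56). So this ratio differed in the same direction in both tissues although the levels of Col4a1 had estimates of opposite sign.

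The ratios of type VI chains differed between groups in the intestine alone as far as overlap goes, a contrast that was not tested. Col6a3 to Col6a1 was 0.38, 0.279 and 0.355 in Veh and 0.189, 0.214 and 0.181 in CORT intestine (-0.79), while in the liver it was 0.73, 0.816 and 0.991 in Veh and 0.831, 0.784 and 0.471 in CORT, with overlap. Col6a1 to Col6a2, neighbours that encode the short chains of type VI, showed overlap in both tissues, with means of 1.14 ± 0.103 in Veh and 1.11 ± 0.0927 in CORT intestine (SD, n = 3).

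**Figure D5:**
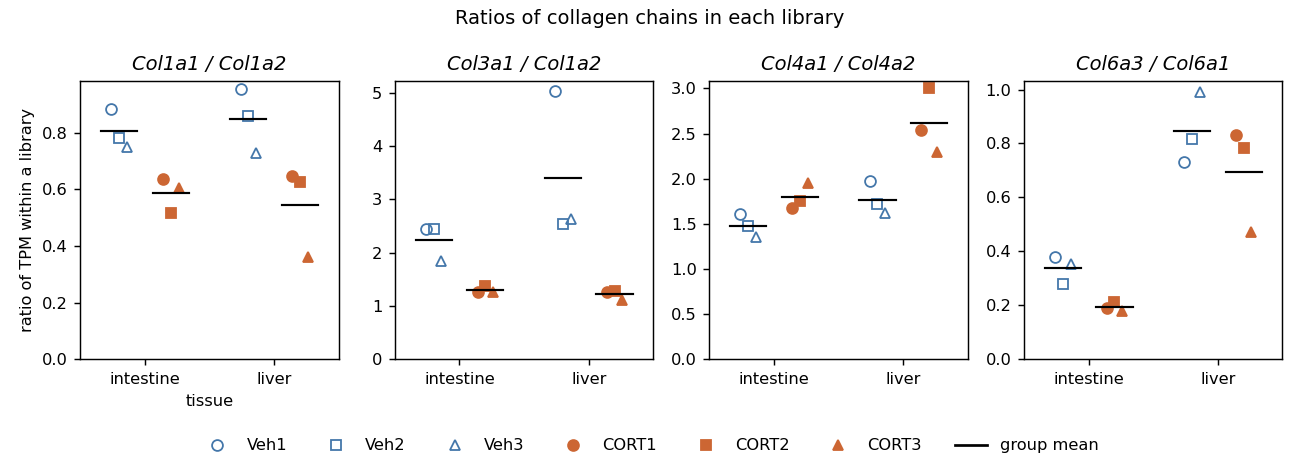
Ratios of TPM of 2 collagen genes within each library, with axes from 0, for intestine and liver, Veh open and CORT filled, and group means as black bars. Of the 8 pairs, Col1a1 to Col1a2, Col3a1 to Col1a2, Col4a1 to Col4a2 and Col6a3 to Col6a1 are drawn, each with separate groups in at least 1 tissue. The ratio of Col3a1 to Col1a2 lies at 1.11 to 1.37 in all CORT libraries and at 1.84 to 5.02 in all Veh libraries, and the ratio of Col4a1 to Col4a2 is higher in every CORT library than in any Veh library of the same tissue.

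Genes that fold, process, bind or break down collagen were followed in 6 lists of 97 genes in all, of which 74 were tested in the intestine and 56 in the liver. In the intestine 2 rose and 0 fell, against 2.15% of all genes called. Timp3, a matrix-bound inhibitor of metalloproteinases, was 7.11, 9.69 and 9.51 TPM in Veh and 17.67, 23.81 and 21.3 in CORT (1.17, SE 0.17, limma adjusted p = 0.0272). Lamb3, the beta chain of the laminin of epithelial anchoring sites, was 6.46, 8.99 and 11.91 TPM in Veh and 43.76, 31.28 and 33.17 in CORT (1.89, SE 0.23, limma adjusted p = 0.0183). Both had every CORT library above every Veh library. The count of 2 dropped to 0 without Veh2 or without both acinar-rich libraries, and to 1 without Veh3, CORT1, CORT2 or CORT3.

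In the liver 5 of the 56 rose and 0 fell, against 6.92% of all genes called. Bmp1, the protease that trims the C-terminal propeptide of fibrillar collagens, was 21.37, 19.95 and 22.67 TPM in Veh and 38.34, 34.39 and 35.81 in CORT (0.74, SE 0.12, limma adjusted p = 0.0168). Ccn2, a secreted matrix protein induced by TGF-beta, was 0.66, 8.55 and 3.29 TPM in Veh and 27.18, 19.16 and 40.32 in CORT (2.81, SE 0.60, limma adjusted p = 0.0399). Both had separate groups, and for Ccn2 Veh2 was the highest Veh library. Skil, a repressor of SMAD signalling, averaged 1.19 ± 0.425 TPM in Veh and 3.73 ± 1.27 in CORT (limma adjusted p = 0.0468), and Itga2, a subunit of a collagen-binding integrin, 0.0233 ± 0.0208 and 1.41 ± 0.63 (limma adjusted p = 0.0393). Timp4, a metalloproteinase inhibitor, had a listed value of 0 in Veh1, Veh2 and Veh3 and was 2.19, 1.89 and 4.63 TPM in CORT (limma adjusted p = 0.0148), so Timp4 and Itga2 passed the filter through CORT alone. With no filter on low values Timp4 and Bmp1 were called, and Itga2, Ccn2 and Skil were not. The count of 5 dropped to 0 without Veh1 or Veh3, to 1 without CORT1 and to 2 without CORT2 or CORT3, and was 10 without Veh2. With median-ratio scaling 7 were called, among them Tgfbr3 and Ppib, a folding enzyme that was lower in CORT (312 ± 33.4 TPM in Veh and 208 ± 9.67 in CORT). In the main fit Ppib (-0.58, limma adjusted p = 0.0448) and Smad4 (0.55, limma adjusted p = 0.0429) missed the fold limit alone. With a pseudocount of 0.1 Ccn2 was no longer called and Smad4 was.

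The lists are given by role, with no test between them. For chain synthesis and folding, such as the prolyl and lysyl hydroxylases and the collagen chaperone Serpinh1, 16 of 20 genes were tested in the intestine, with 7 below 0, a median log2 fold change of 0.08 and 0 called. In the liver 13 were tested, with 4 below 0, a median of 0.24 and 0 called. Serpinh1 averaged 27.3 ± 6.4 and 26 ± 10.5 TPM in Veh and CORT intestine. For propeptide cleavage and crosslinking, 6 of 9 tested genes were below 0 in the intestine (median -0.16), and 0 of 7 in the liver (median 0.47). The 7 liver genes were Adamts2, Bmp1, Pcolce, Bgn, Dcn, Lum and Sparc. No Lox or Loxl crosslinking enzyme passed the filter in the liver, so these values do not describe crosslinking there. Collagen breakdown had 8 of 12 below 0 in the intestine (median -0.19) and 3 of 7 in the liver (median 0.31). The 1 gene called in each was an inhibitor, Timp3 in the intestine and Timp4 in the liver. This list mixes proteases with Timp inhibitors, so its median gives no direction for breakdown. In the liver Mmp14, Mmp2 and Prep were below 0, and Timp2, Timp3, Timp4 and Pepd were above 0.

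Collagen receptors had 4 of 7 below 0 in the intestine (median -0.12) and 1 of 4 in the liver (median 0.35). Basement membrane partners, the laminins, nidogens and perlecan that join type IV collagen, had 11 of 15 below 0 in the intestine (median -0.10) and 6 of 11 in the liver (median -0.03). TGF-beta signalling, a known inducer of collagen genes, had 4 of 15 below 0 in the intestine (median 0.13) and 3 of 14 in the liver (median 0.19). The medians over all genes tested were -0.012 in the intestine and 0.078 in the liver.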

How the data were processed

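Total RNA of duodenum and liver was sequenced in 12 samples, 3 per tissue and treatment, with groups and replicate numbers from the sample labels ("Bio rep"). Nothing further says that replicates are separate mice, so p-values measure the spread between these samples. Per the paper's methods the authors trimmed reads with SeqPrep and Sickle, and the submitters' processing notes name HISAT2, StringTie, RSEM and GRCm39. The authors deposited TPM per gene and library, unpooled, so depth is unknown and precision comes from 3 replicates a group.

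Starting from the deposited TPM, log2(TPM + 1) was fitted in each tissue alone with limma 3.58.1 (trend) in R 4.3.3, for genes averaging 1 TPM or more in Veh or in CORT (13607 in the intestine, 11699 in the liver), with Benjamini-Hochberg adjustment over all of them. A fit over 12 libraries, all taken as independent, gave the difference between tissues for the 10500 genes passing in both. Called genes had an adjusted p of at most 0.05 and a fold change over 1.5 (no fold limit for the difference between tissues). Chain ratios were compared by exact permutation (scipy 1.17.1). In simulated data with 200 genes changed by 2 log2 units, the intestine fit recovered 181, with 12 false calls. The liver fit recovered 189, with 7 false calls. These changes were larger than any collagen estimate of the main fits, so power for the members was not measured.

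The members and lists were chosen with earlier results of these data known. Genes named with values are Col1a1, Col3a1, Col4a1 and their partners, the 8 members with the highest mean in each tissue, members called, members whose groups do not overlap, and called genes of the lists. Members that are otherwise named were chosen after their values were seen. Alternatives were a pseudocount of 0.1, no filter, a replicate block, leaving out each library, no fold limit, unadjusted p, median-ratio scaling, both tissues in 1 fit, removal of acinar genes and, added after seeing the data, leaving out the intestine libraries Veh2 and Veh3 together. Promoter windows are of RefSeq, GRCm38.p6, a build other than that of the tables, and were matched by symbol. Col12a1, Col14a1, Col1a1, Col22a1, Col26a1, Col2a1, Col4a3, Col5a2 and Col9a3 were not matched. Leaving out a library keeps an arm of 2 samples, and the lone Veh1 is taken to vary like the CORT libraries.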

Additional observations from a re-analysis of the deposited data

Results flagged for a closer look

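The CORT effect on Col13a1 differed between the tissues by a test of the difference itself, which 3.00% of all genes passed. The intestine minus liver difference in log2 fold change was -1.56 (SE 0.33, limma adjusted p = 0.0277), from -0.16 in the intestine and 1.39 in the liver. All 3 CORT livers were above all 3 Veh livers, and the intestine groups overlapped. Col13a1 passed the liver filter through CORT alone. With 1 library left out, the difference missed the threshold in 7 of 12 fits. Groups of 3 were too small for a test of single outlying samples.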

How the results depend on the processing

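With 3 libraries a group and TPM without depth, low collagen genes could not be judged, and Veh2 and Veh3 of the intestine stood apart in acinar RNA and Veh2 of the liver in smooth muscle RNA. Over all genes, the 292 called in the intestine became 52 with no filter, 62 with the replicate block, 743 with both tissues in 1 fit and 66 to 237 with 1 library left out (10 without both acinar-rich libraries). The 810 in the liver became 283, 307, 1384 and 247 to 831, and the 315 differing between tissues became 160 with the block and 161 to 444 with 1 library left out. Collagen genes called in the intestine were 0 in 13 alternatives, 1 (Col3a1) with both tissues in 1 fit and 5 with unadjusted p. In the liver the 1 called gene became 0 with the replicate block, 2 with median-ratio scaling and 3 with unadjusted p, and ranged from 0 to 2 with 1 library left out. Genes differing between tissues were 3 with unadjusted p and 0 to 3 with 1 library left out. Processing and matrix genes called in the intestine were 0 with no filter, with the block or without both acinar-rich libraries, 4 with both tissues in 1 fit and 7 with unadjusted p, and 0 to 2 with 1 library left out. In the liver they were 2 with no filter, 1 with the block, 9 with both tissues in 1 fit or unadjusted p, and 0 to 10 with 1 library left out. Same-numbered Veh and CORT samples of a tissue did not deviate together (correlations from -0.12 to 0.0734), so these numbers were not taken as pairs. The labels do not say whether same-numbered intestine and liver samples share a mouse. That pairing was not checked, and the test of the difference between tissues took them as independent. Estimates of uncalled genes that changed sign were, in the intestine without Veh2 and Veh3, Col13a1 (0.30), Col18a1 (0.47), Col1a2 (0.13), Col6a1 (0.24) and Col6a2 (0.13). With 1 library left out the estimates ran from -0.39 to 0.01 for Col13a1 and from -0.35 to 0.06 for Col18a1 in the intestine, and from -0.28 to 0.79 for Col14a1, -0.36 to 0.23 for Col1a1, -0.15 to 0.58 for Col6a1 and -0.43 to 0.30 for Col6a3 in the liver. The cause was not tested.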
